A study of Mus musculus and Rattus norvegicus with 30 samples.

Results

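The transcripts described here were 1038 long noncoding RNAs (LncRNAs) of the mouse dorsal root ganglion (DRG) that were assembled from RNA-seq reads outside annotated gene models and that carried support from a splice junction. A member had at least 2 exons, and at least 1 gap between consecutive exons coincided in chromosome, start, end and strand with a deposited splice junction. The mouse catalogue held 4730 assembled LncRNAs, of which a further 2986 had several exons and no supported gap and 704 had a single exon. Support was a property of positions and strands. No test between groups was used to choose the members, although the same reads gave both the junctions and the counts. Per the study's methods, the catalogue kept only LncRNAs found in every replicate of a condition or strain. A transcript could therefore enter it through the strain or group in which it was high.

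Long noncoding RNAs are transcripts without a recognisable open reading frame of protein size, and many of them are capped, spliced and polyadenylated like messenger RNA. Splicing removes an intron between a donor site, which usually begins with GT, and an acceptor site, which usually ends with AG after a pyrimidine-rich stretch. A small class of introns instead runs from AT to AC and is removed by the minor spliceosome. In the DRG, where the cell bodies of sensory neurons lie among satellite glia, LncRNAs beside or opposite ion channel genes have been studied for a part in pain after nerve injury.

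Each of the 20 libraries came from the L3 and L4 ganglia of 1 adult mouse, taken 28 days after surgery. The groups were BALB/c sham (6 libraries, 3 male and 3 female), BALB/c SNI (4 libraries, 2 male and 2 female), B10.D2 sham (5 libraries, 3 male and 2 female) and B10.D2 SNI (5 libraries, 2 male and 3 female). Spared nerve injury (SNI) severs the common peroneal and sural branches of the sciatic nerve but not its tibial branch. In sham surgery the nerve was exposed and left undamaged. The labels name no transgene, and the ganglia held injured and uninjured neurons together with their non-neuronal cells. Libraries are named by the number in their title.

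Between 29.99 and 41.88 M counts (M for mega, median 36.6) were obtained per library, and members took 0.894 to 1.15% of them. All 14 neuronal markers were present, with summed levels of 10236 to 13354 counts per M (CPM). Of 11 genes known to rise after nerve injury that could be tested, 11 were higher after SNI in BALB/c mice, and 10 were in B10.D2 mice. Summed skeletal muscle markers reached 1265 CPM in BALB/c sham 50 and 498 CPM in BALB/c SNI 49 against at most 92.8 CPM elsewhere, and summed Schwann cell markers reached 4533 CPM in BALB/c sham 51. Without these 3 libraries 39 members differed between SNI and sham in BALB/c, 24 in B10.D2, and 264 between the strains after sham surgery, beside 52, 23 and 301 with them.

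The exon borders of 10 members that the results below turn on are printed from the mm10 genome sequence, together with an unsupported gap for contrast. Each line reads from the 5′ to the 3′ end of the transcript strand. The start of a gap is shown as 15 exon bases and then 30 gap bases, and its end as 30 gap bases and then 15 exon bases. Capitals mark the first pair and the last pair of bases of the gap.
LncRNA496 start: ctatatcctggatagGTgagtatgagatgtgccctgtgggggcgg
LncRNA496 end: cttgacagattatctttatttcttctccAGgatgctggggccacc
LncRNA652 start: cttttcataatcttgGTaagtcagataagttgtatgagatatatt
LncRNA652 end: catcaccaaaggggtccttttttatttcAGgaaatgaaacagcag
LncRNA2225 start: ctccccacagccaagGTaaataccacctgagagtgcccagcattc
LncRNA2225 end: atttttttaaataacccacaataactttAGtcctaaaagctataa
LncRNA1522 start: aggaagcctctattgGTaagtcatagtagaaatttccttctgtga
LncRNA1522 end: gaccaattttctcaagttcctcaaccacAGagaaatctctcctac
LncRNA1339 start: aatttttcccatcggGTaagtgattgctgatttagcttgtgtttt
LncRNA1339 end: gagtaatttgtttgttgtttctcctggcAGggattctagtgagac
LncRNA1701 start: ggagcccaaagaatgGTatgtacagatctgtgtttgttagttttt
LncRNA1701 end: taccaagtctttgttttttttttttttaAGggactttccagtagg
LncRNA302 start: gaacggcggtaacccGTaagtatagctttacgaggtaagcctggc
LncRNA302 end: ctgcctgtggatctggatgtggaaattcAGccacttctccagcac
LncRNA1687 start: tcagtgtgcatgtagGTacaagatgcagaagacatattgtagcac
LncRNA1687 end: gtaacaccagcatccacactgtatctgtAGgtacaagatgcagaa
LncRNA2070 start: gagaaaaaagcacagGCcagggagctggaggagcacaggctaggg
LncRNA2070 end: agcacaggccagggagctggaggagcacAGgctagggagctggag
LncRNA2432 start: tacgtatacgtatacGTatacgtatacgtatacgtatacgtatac
LncRNA2432 end: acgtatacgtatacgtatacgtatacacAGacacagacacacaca
LncRNA3071 start: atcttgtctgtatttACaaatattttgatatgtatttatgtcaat
LncRNA3071 end: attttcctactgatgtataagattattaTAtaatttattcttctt

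The gap of LncRNA496 was chr2:169831903-169867570 on the minus strand (35668 bases), that of LncRNA652 chr3:92219697-92283184 on the minus strand (63488 bases) and that of LncRNA2225 chr11:118605319-118606019 on the plus strand (701 bases). The gap of LncRNA1522 was chr7:119311524-119313070 on the minus strand (1547 bases), that of LncRNA1339 chr6:126609336-126610306 on the minus strand (971 bases) and that of LncRNA1701 chr8:38375785-38385384 on the minus strand (9600 bases). LncRNA302 had its gap at chr2:118555472-118582135 on the plus strand (26664 bases). In these 7 members the gap ran from GT to AG, and in LncRNA1701 a long run of thymines preceded the AG. The gap of LncRNA1687, chr8:32614050-32614367 on the minus strand (318 bases), also ran from GT to AG, but the bases after its start were repeated after its end, and the direct repeat at its borders was 26 bases long. LncRNA2070 had a gap of only 23 bases, chr10:49753480-49753502 on the minus strand, which ran from GC to AG between short repeats of 9 bases. The 40-base gap of LncRNA2432, chr12:8506218-8506257 on the minus strand, began in a short tandem repeat. The gap of LncRNA3071 shown here, chr16:75170423-75170480 on the minus strand (58 bases), had no junction support and ran from AC to TA.

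Supported gaps carried the letters of introns. Of 1241 supported gaps, 1083 ran from GT to AG on the annotated transcript strand (87.3%, 95% Wilson interval 85.3 to 89.01), 60 from GC to AG (4.83%), 4 from AT to AC (0.322%) and 94 had other ends (7.57%). The 1069 unsupported gaps of the same members ran from GT to AG in 2.99% of cases (2.13 to 4.195), and the 27837 gaps of multi-exon LncRNAs without support in 2.51% (2.33 to 2.70). At least 1 supported GT to AG gap was present in 902 members and absent in 136. The aligner scores gaps with usual intron ends above others, so these letters are not independent of the junction calls.

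**Figure D1:**
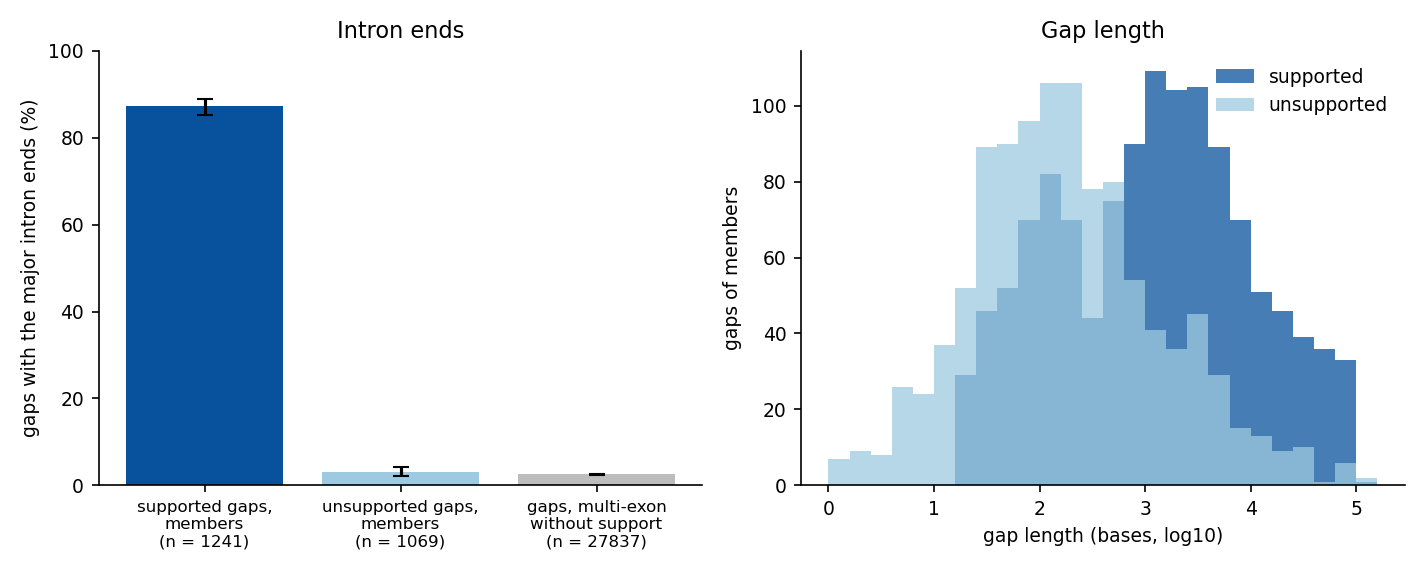
The left panel gives the percentage of gaps that ran from GT to AG, with 95% Wilson intervals, and the right panel the lengths of members' gaps in bases on a log10 axis. Supported gaps reached 87.3% against 2.99% and 2.51%, and their lengths lay to the right of those of unsupported gaps.

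Bases next to the terminal pairs followed the same order among gaps of at least 50 bases. The fifth gap base was G in 65.8% of 1136 supported gaps, 23.2% of 784 unsupported gaps of members and 19.98% of 22853 gaps of LncRNAs without support. The last exon base was G in 75.9%, 38.4% and 36.8% respectively. A pyrimidine stood directly before the last pair in 79.8%, 48.9% and 47.7%. Pyrimidines made up 67.6 ± 17.7% (SD over gaps) of bases 20 to 5 before the gap's end in supported gaps, 52.1 ± 18.3% in unsupported gaps of members and 50.5 ± 17.6% in the other gaps. Supported gaps were longer as well, with a median of 1307 bases against 149 and 320, and 8.46% of them were under 50 bases against 26.7% and 17.9%. The study kept only junctions above a minimum length, which fixes part of this difference. The shortest supported gap had 21 bases, against 1 base in both other sets. Only 15 supported gaps, in 11 members, coincided with an intron of GENCODE M21.

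A minority of supported gaps lay between direct repeats, a feature that was looked for after sequences had been seen. A stretch of at least 10 bases was repeated at both borders in 175 of 1241 supported gaps (14.1%, 12.3 to 16.1), in 0.935% of unsupported gaps of members and in 1.43% of the other gaps. The share was 10.7% of GT to AG gaps, 23.3% of GC to AG gaps and 46.8% of gaps with other ends. It was 23.8% of 558 supported gaps under 1000 bases and 6.15% of 683 longer ones. In 158 members (15.2%) every supported gap lay between such repeats, and 796 members had a GT to AG gap without them. At such borders a spliced read and a read with a deletion between repeats give the same alignment, and which of them occurred was not tested.

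Members were short transcripts of few exons. Of the 1038, 806 had 2 exons, 134 had 3 and 98 had 4 or more. A single supported gap was present in 876 members, 2 in 132 and 3 to 5 in 30, and every gap was supported in 940. Median exonic length was 1442 bases in members, 3554 bases in multi-exon LncRNAs without support and 607.5 bases in single-exon LncRNAs. LncRNA1477 (chr7:34551792-34630916, minus strand) and LncRNA2381 (chr12:50649289-50677141, plus strand) had the most supported gaps, 5 each. All 5 of LncRNA1477 ran from GT to AG, and 4 of 5 did so in LncRNA2381, whose start lay 191 bases from Prkd1, the gene of a protein kinase D. A further 7 members had 4 each. Of these, LncRNA1899 (chr9:60546926-60562474, minus strand) and LncRNA3071 (chr16:75094215-75271701, minus strand) had 7 exons, and LncRNA523 (chr3:33958974-33989163, plus strand), LncRNA1144, LncRNA2257, LncRNA2823 and LncRNA2843 had 5.

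Against GENCODE M21, 409 members (39.4%) were intergenic and 223 lay within or across an annotated gene on its own strand without sharing its exons. A further 210 were antisense to an exon of a protein-coding gene, 128 lay within or across a gene on the opposite strand, 43 were antisense to an exon of another gene class, and 25 overlapped an exon on the same strand. In multi-exon LncRNAs without support, 22.8% were intergenic and 61.5% overlapped a gene on the same strand, against 28.4% of members. Members were found on 21 chromosomes, 22 of them on X and 2 on Y, with 564 on the plus and 474 on the minus strand. The 223 same-strand members shared 178 host genes. Rbfox1, which encodes a splicing factor, and Nrg1, which encodes the growth factor neuregulin 1, held 8 each, Sgcz (zeta-sarcoglycan) held 6 and Trpm3 (a heat-gated cation channel) held 5.

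The assembly left its own mark on position. Gene models had been extended by 1000 bases before unannotated reads were collected, and 72 of the 75 members within 1100 bases past the 3′ end of a same-strand gene began 990 to 1100 bases from it. The stretch from there to 2000 bases held 34. Before gene starts the same windows held 14 and 13 members. Where such a member lay directly past a 3′ end, its counts and the uncounted tail of that gene cannot be told apart.

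**Figure D2:**
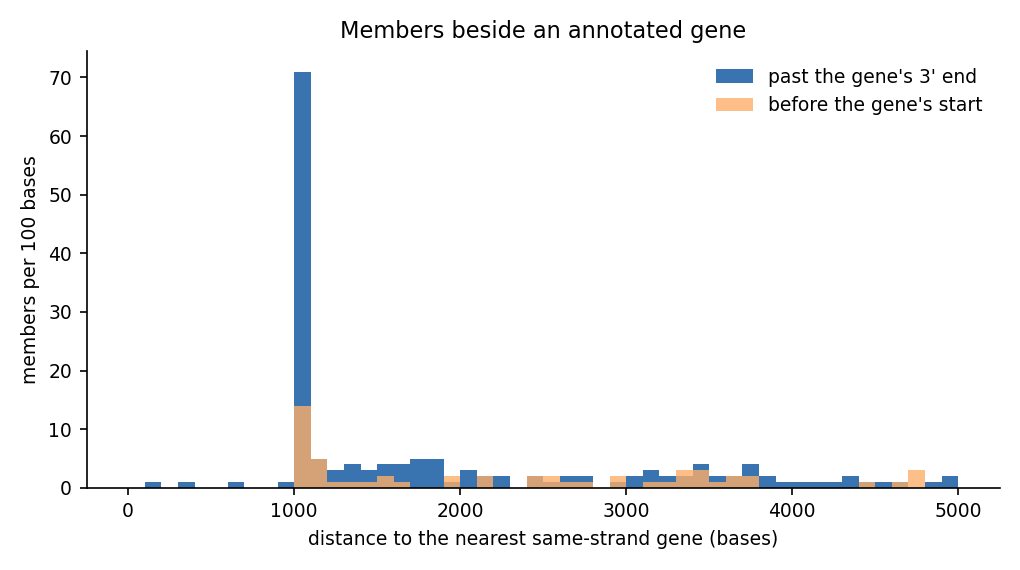
The number of members per 100 bases is plotted against the distance in bases to the nearest same-strand gene, out to 5000 bases, for members past a 3′ end and members before a start. The column beginning at 1000 bases past a 3′ end stands above all others.

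Most members were expressed at low levels. Median level per kilobase of exon (RPKM, CPM divided by exonic length in kilobases) was 0.523 in members, 0.306 in multi-exon LncRNAs without support and 0.512 in single-exon LncRNAs. On the CPM scale, 455 members (43.8%) had a mean of at least 1 CPM and 111 of at least 10 CPM, and 880 were counted in every library. By class, median level was 0.696 RPKM in same-strand members within genes and 0.476 RPKM in intergenic members.

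The highest level belonged to LncRNA1174 (chr5:146260990-146261365, minus strand), which spans 376 bases opposite to Cdk8, the gene of a Mediator kinase, with 898 ± 285 RPKM (SD, n = 20). It was at 135 to 422 (median 218) CPM in BALB/c sham libraries, at 162, 171, 215 and 257 CPM in BALB/c SNI, at 163, 185, 192, 238 and 313 CPM in B10.D2 sham and at 219, 253, 302, 346 and 368 CPM in B10.D2 SNI. The 4 groups overlapped, and no comparison passed the threshold for it. LncRNA446 (chr2:110976730-110999360, minus strand), upstream of Ano3, which encodes an anoctamin membrane protein, followed at 53.1 ± 5.76 RPKM, and its neighbour in this order, LncRNA1488 (chr7:48153835-48210632, minus strand), at 49.7 ± 5.57 RPKM. These 2 did not differ beyond their spread, and neither did LncRNA1624 at 48.7 ± 4.64 RPKM. LncRNA1488 spans Mrgprb4, the gene of a receptor of touch-sensitive unmyelinated neurons. The remaining 6 of the 10 highest, LncRNA2015, LncRNA593, LncRNA435, LncRNA3071, LncRNA3072 and LncRNA3069, ranged from 22.8 down to 10.9 RPKM. LncRNA3071 had the largest share of reads, 1746 ± 216 CPM.

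The effect of SNI was asked separately in each strain, because the study compared strains that differ in mechanical hypersensitivity after this injury. In bulk ganglia fewer cells of a type and less RNA per cell cannot be told apart. A difference is called where the adjusted p of edgeR's quasi-likelihood test over all genes and assembled LncRNAs together was under 0.05. Of 1038 members, 879 passed the filter on low counts and could be tested.

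In BALB/c, 52 members were called, 20 higher and 32 lower after SNI, which is 5.92% of those tested beside 9.69% of all features tested. Called without overlap of CPM between the 2 groups were 37 of the 879 members tested, beside 1629 of the 24685 features tested (6.60%). Within the calls alone this was 37 of 52 members, beside 1629 of 2392 features. In B10.D2, 23 members were called, 9 higher and 14 lower (2.62%, beside 4.58% of all features). Without overlap between groups were 17 of the 879 members tested, beside 761 of the 24685 features tested (3.08%). Within the calls this was 17 of 23 members, beside 761 of 1130 features. Multi-exon LncRNAs without support were called in 5.87% and 2.51%. The median log2 fold change was -0.05 over members and 0.00 over all features in BALB/c, and 0.02 and 0.01 in B10.D2. Without BALB/c SNI 64 the BALB/c count was 34, and without B10.D2 SNI 90 the B10.D2 count was 15.

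Markers of several cell types moved with the injury, and their part in the calls of members was not tested. Of 14 neuronal markers, Snap25, Nefh and Nefm fell in each strain, and 0 rose. Their sum was 11591 to 13354 CPM after sham surgery and 10559 to 11934 CPM after SNI in BALB/c, and 11932 to 13163 and 10236 to 12539 CPM in B10.D2. Of 8 macrophage markers, Cd68, Csf1r and Cx3cr1 rose in BALB/c and 0 were called in B10.D2, with sums of 82.9 to 206 CPM (sham) and 156 to 243 CPM (SNI) in BALB/c and of 165 to 189.9 and 170.02 to 282 CPM in B10.D2. Among the satellite glia and fibroblast lists, 5 genes each, Cdh19 and Lum rose in both strains. In BALB/c Cldn5, 1 of 4 endothelial markers, and Gfap rose and Aqp4 fell, while Mog and Olig2 of the same central glia list were near 0. None of the 7 Schwann cell, 4 muscle and 4 red cell markers was called after injury.

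In both strains 15 members were called, all in the same direction, which is 28.8% of the BALB/c calls and 65.2% of the B10.D2 calls. Over all features 867 were called in both, 36.2% and 76.7%. The strain by injury interaction called 0 members (edgeR, beside 0.0243% of all features), with a smallest adjusted p of 0.718 and 50 members at an unadjusted p under 0.05. DESeq2 called 0 for it as well. The 15 are named here after their values were seen. Of these, LncRNA496, LncRNA652 and the 5 Nrg1 members LncRNA1682, LncRNA1685, LncRNA1686, LncRNA1687 and LncRNA1688 rose. LncRNA2225, LncRNA1522, LncRNA868, LncRNA350, LncRNA1528, LncRNA531, LncRNA1700 and LncRNA1701 fell.

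LncRNA496 (chr2:169822187-169867724, minus strand) had the largest rise in BALB/c among members of at least 1 CPM. It lies opposite to Tshz2, which encodes a zinc finger transcription factor, and has 7 exons and 3 supported GT to AG gaps. In BALB/c it was at 0.363 to 0.942 (median 0.515) CPM in the 6 sham libraries and at 5.39, 5.47, 5.54 and 6.70 CPM in the 4 SNI libraries. The B10.D2 libraries held it at 0.0272, 0.0532, 0.0877, 0.145 and 0.302 CPM after sham surgery and at 0.179, 0.447, 0.455, 0.824 and 1.34 CPM after SNI. The BALB/c groups stood apart, whereas the B10.D2 groups overlapped and lay below the BALB/c SNI libraries throughout. The change was 9.94-fold in BALB/c (log2 fold change 3.31 ± 0.32 (SE), adjusted p = 5.90e-07) and 5.603-fold in B10.D2 (log2 fold change 2.49 ± 0.48 (SE), adjusted p = 0.00358). The 2 changes were not shown to differ, with a log2 interaction of -0.83 ± 0.66 (SE). After sham surgery LncRNA496 was lower in B10.D2 (log2 fold change -2.34 ± 0.48 (SE), adjusted p = 8.99e-04). Tshz2 itself fell in BALB/c, with a log2 fold change of -0.23 ± 0.07 (adjusted p = 0.0366), and had -0.03 ± 0.07 in B10.D2 (adjusted p = 0.905). On its own strand LncRNA496 overlaps the span of the annotated gene Gm26883. Gm26883 had 0.04 ± 0.41 in BALB/c (adjusted p = 0.974) and 0.21 ± 0.40 in B10.D2 (adjusted p = 0.857).

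LncRNA652 (chr3:92173554-92283310, minus strand) is antisense to an exon of Sprr2a1, a gene of the small proline-rich family. Sprr2a1 had 0 CPM in every library, and so had Gm5850, whose span LncRNA652 overlaps on its own strand. Among its 25 gaps only the 63488-base gap printed above had junction support. LncRNA652 was at 0 to 0.0558 (median 0.0292) CPM in the 6 sham libraries and at 0.0778, 0.113, 0.150 and 0.227 CPM in the 4 SNI libraries in BALB/c. The B10.D2 libraries stood at 0.0585, 0.0724, 0.121, 0.133 and 0.163 CPM after sham surgery and at 0.332, 0.642, 0.672, 0.776 and 0.945 CPM after SNI. Its 7 counts over all BALB/c sham libraries make that group imprecise. In neither strain did the groups overlap, and the levels of B10.D2 SNI libraries were the highest of all. The rise was called in both strains (BALB/c log2 fold change 2.02 ± 0.55 (SE), adjusted p = 0.0235, B10.D2 log2 fold change 2.59 ± 0.35 (SE), adjusted p = 1.19e-04). In BALB/c the call was lost without BALB/c SNI 49 (adjusted p = 0.0921) and BALB/c SNI 64 (adjusted p = 0.0656).

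**Figure D3:**
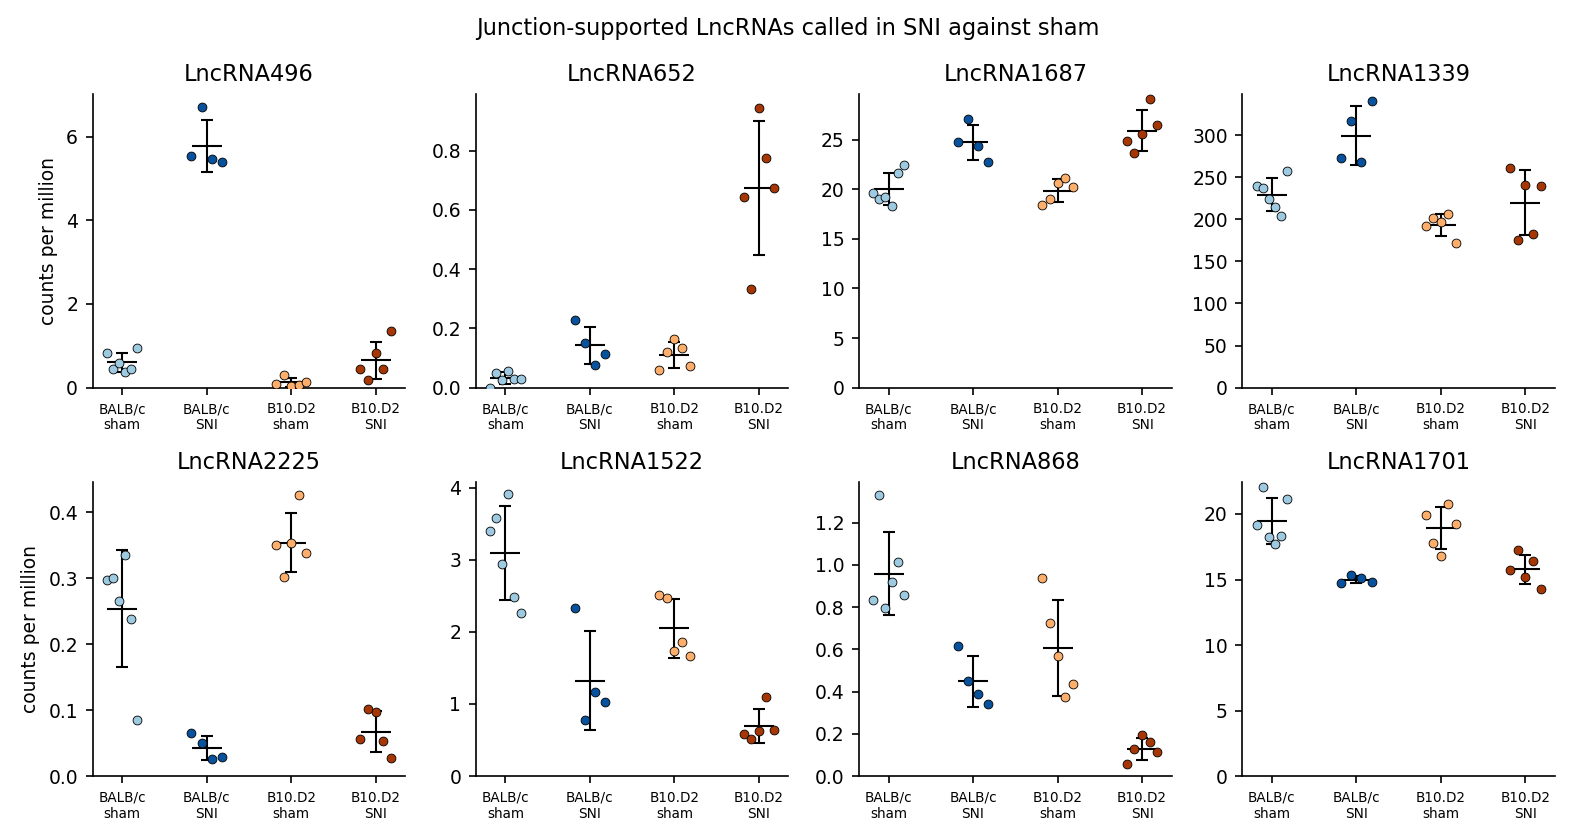
The level in CPM of 8 members called in SNI against sham is plotted for every library (points) with the mean and SD of each group (lines). LncRNA496 reached 5.39 to 6.70 CPM in BALB/c SNI against at most 1.34 CPM elsewhere, and LncRNA2225 and LncRNA868 fell in both strains without overlap. LncRNA2225 was below 1 CPM in every library.

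Inside Nrg1, 5 of 8 members rose in both strains while the gene itself fell. Neuregulin 1 on axons signals to Schwann cells through ErbB receptors and governs myelination. Nrg1, counted over its annotated exons, had a log2 fold change of -0.36 ± 0.06 in BALB/c (adjusted p = 4.73e-04) and -0.28 ± 0.06 in B10.D2 (adjusted p = 0.00784). The 8 members lie on its strand between chr8:32227870 and chr8:32824043. LncRNA1682 (chr8:32227870-32233637, minus strand) had the largest rise of the 5, with log2 fold changes of 0.50 and 0.58 at a mean of 2.57 CPM over all libraries. The others called, LncRNA1685, LncRNA1686, LncRNA1687 and LncRNA1688, rose by 0.30 to 0.34 in BALB/c and 0.38 to 0.41 in B10.D2. LncRNA1684, LncRNA1689 and LncRNA1690 had log2 fold changes of 0.24 to 0.35 in BALB/c and 0.28 to 0.46 in B10.D2 and were not called in either strain.

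LncRNA1687 (chr8:32608109-32630858, minus strand), whose gap between repeats is printed above, was at 18.3 to 22.5 (median 19.4) CPM in the 6 sham libraries and at 22.7, 24.4, 24.8 and 27.1 CPM in the 4 SNI libraries in BALB/c. Libraries of B10.D2 had it at 18.4, 18.997, 20.2, 20.7 and 21.1 CPM after sham surgery and at 23.7, 24.9, 25.6, 26.5 and 29.1 CPM after SNI. Neither pair of groups overlapped (BALB/c log2 fold change 0.30 ± 0.07 (SE), adjusted p = 0.00709, B10.D2 log2 fold change 0.38 ± 0.07 (SE), adjusted p = 0.00177). Of the 5 members called, 3 (LncRNA1682, LncRNA1687 and LncRNA1688) had their supported gap between repeats of 18 to 26 bases, and the gap of LncRNA1688 ran from AT to AC over 32 bases. The reads came from ribodepleted RNA, in which unspliced precursor of the host gene is retained, so that reads of an intron and of a same-strand member cannot be told apart in these counts. The BALB/c call was lost for LncRNA1687 without BALB/c SNI 64 (adjusted p = 0.0551) and for LncRNA1686 without BALB/c SNI 64 (adjusted p = 0.0875) and BALB/c SNI 65 (adjusted p = 0.0624). For LncRNA1682 it was lost without any of 5 BALB/c libraries in BALB/c (adjusted p = 0.0609 to 0.148) and without any of 5 B10.D2 libraries in B10.D2 (adjusted p = 0.0529 to 0.132).

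In Sgcz, which encodes a part of the sarcoglycan complex of the cell membrane, the 6 same-strand members went the other way. LncRNA1698, LncRNA1699, LncRNA1700, LncRNA1701 and LncRNA1702 fell in BALB/c with log2 fold changes of -0.37 to -0.30. LncRNA1697, the least abundant at 0.550 CPM, had -0.38 and was not called. LncRNA1700 and LncRNA1701 were also called in B10.D2, at -0.22 and -0.25. Sgcz fell in BALB/c (-0.27 ± 0.06, adjusted p = 0.00567), while in B10.D2 its log2 fold change was -0.02 ± 0.06 (adjusted p = 0.897).

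LncRNA1701 (chr8:38368865-38385953, minus strand), with a 9600-base GT to AG gap, was at 17.7 to 22.1 (median 18.7) CPM in the 6 sham libraries and at 14.8, 14.8, 15.1 and 15.3 CPM in the 4 SNI libraries in BALB/c. Its B10.D2 values were at 16.8, 17.8, 19.2, 19.9 and 20.8 CPM after sham surgery and at 14.3, 15.2, 15.7, 16.4 and 17.2 CPM after SNI. The BALB/c groups did not overlap and those of B10.D2 did (BALB/c log2 fold change -0.37 ± 0.07 (SE), adjusted p = 0.00191, B10.D2 log2 fold change -0.25 ± 0.07 (SE), adjusted p = 0.0465). The B10.D2 call was lost when any of 13 of the 20 libraries was left out (adjusted p = 0.0512 to 0.183), and that of LncRNA1700 when any of 8 was (adjusted p = 0.0565 to 0.121). The BALB/c call of LncRNA1699 was lost without BALB/c SNI 70 (adjusted p = 0.0550).

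**Figure D4:**
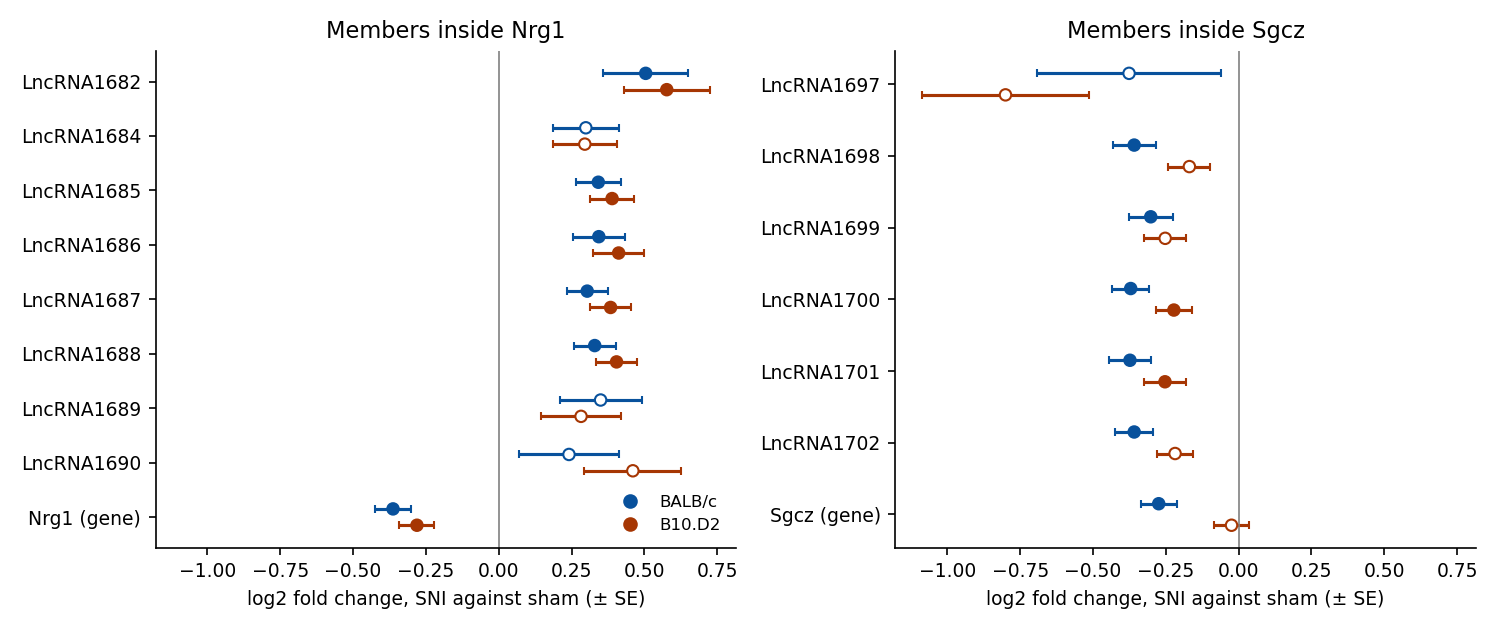
Log2 fold changes of SNI against sham with their standard errors are shown for the members inside Nrg1 and Sgcz, in order of position, and for each gene itself (filled points are called, open points are not). The 5 called Nrg1 members stood between 0.30 and 0.58 in both strains with Nrg1 at -0.36 and -0.28, and all 6 Sgcz members had negative estimates.

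The largest fall called in both strains was that of LncRNA2225 (chr11:118604768-118606212, plus strand), which lies opposite to Rbfox3, the gene of the neuronal nuclear antigen NeuN. In BALB/c it was at 0.0856 to 0.335 (median 0.282) CPM in the 6 sham libraries and at 0.0259, 0.0284, 0.0502 and 0.0649 CPM in the 4 SNI libraries. The B10.D2 values were at 0.302, 0.338, 0.351, 0.353 and 0.426 CPM after sham surgery and at 0.0280, 0.0535, 0.0558, 0.0970 and 0.102 CPM after SNI. The groups did not overlap in either strain, although 1 BALB/c sham library came close to the SNI libraries (BALB/c log2 fold change -2.53 ± 0.42 (SE), adjusted p = 3.81e-04, B10.D2 log2 fold change -2.39 ± 0.34 (SE), adjusted p = 2.10e-04). LncRNA2225 was below 1 CPM in every library and rested on very few counts after SNI, so the size of its fall is imprecise. Rbfox3, with log2 fold changes of -0.29 ± 0.12 (BALB/c) and -0.20 ± 0.12 (B10.D2), was not called. Rbfox3 is also 1 of the 14 neuronal markers.

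LncRNA1522 (chr7:119307269-119313248, minus strand) and LncRNA1523 (chr7:119313898-119406142, minus strand) are intergenic neighbours on chromosome 7, each with 4 exons and 3 supported gaps. LncRNA1522 was at 2.25 to 3.91 (median 3.17) CPM in the 6 sham libraries and at 0.777, 1.02, 1.17 and 2.33 CPM in the 4 SNI libraries in BALB/c, where the groups overlapped through BALB/c SNI 49. In B10.D2 it was at 1.67, 1.74, 1.86, 2.47 and 2.51 CPM after sham surgery and at 0.510, 0.586, 0.630, 0.644 and 1.10 CPM after SNI, without overlap. It fell in both strains (BALB/c log2 fold change -1.27 ± 0.24 (SE), adjusted p = 0.00116, B10.D2 log2 fold change -1.50 ± 0.25 (SE), adjusted p = 7.52e-04). LncRNA1523 fell in BALB/c from 1.54 ± 0.428 to 0.562 ± 0.211 CPM (SD, n = 6 and 4) without overlap (log2 fold change -1.48 ± 0.27 (SE), adjusted p = 8.42e-04). In B10.D2 it was at 1.35 ± 0.237 and 1.03 ± 0.358 CPM (adjusted p = 0.504).

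LncRNA868 (chr4:90561739-90659257, minus strand) was an intergenic model of 24 exons, with junction support only at its gaps of 388, 1558 and 53773 bases. It was at 0.796 to 1.33 (median 0.888) CPM in the 6 sham libraries and at 0.340, 0.389, 0.451 and 0.616 CPM in the 4 SNI libraries in BALB/c. B10.D2 libraries had it at 0.373, 0.435, 0.571, 0.724 and 0.936 CPM after sham surgery and at 0.0558, 0.112, 0.128, 0.161 and 0.194 CPM after SNI. Both pairs of groups stood apart (BALB/c log2 fold change -1.10 ± 0.25 (SE), adjusted p = 0.00752, B10.D2 log2 fold change -2.10 ± 0.31 (SE), adjusted p = 2.62e-04). LncRNA350 also fell without overlap in both strains (BALB/c log2 fold change -1.15 ± 0.28 (SE), adjusted p = 0.00978, B10.D2 log2 fold change -1.09 ± 0.27 (SE), adjusted p = 0.0233). The B10.D2 call of LncRNA350 was lost without B10.D2 sham 77 (adjusted p = 0.0721), B10.D2 SNI 76 (adjusted p = 0.0529) and B10.D2 SNI 89 (adjusted p = 0.0555).

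Genes on lists of ion channels, receptors, sensory transcription factors and injury genes were the partner of 29 members. A partner was the gene that a member overlapped, or the nearest gene of an intergenic member. The lists were chosen with earlier results of these data known, and 27 of these members could be tested. In BALB/c 4 were called, LncRNA2070 and LncRNA1339 higher and LncRNA1098 and LncRNA3468 lower, which is a count of 4 of 27 beside the 9.69% of all features. In B10.D2 0 of the 27 were called, beside 4.58% of all features. Between strains 10 of the 27 were called, beside 21.6% of all features and 34.2% of members.

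LncRNA1339 (chr6:126602358-126635461, minus strand) begins 4936 bases past the 3′ end of Kcna1, the gene of a voltage-gated potassium channel that limits axonal firing, and was among the most abundant members. In BALB/c it was at 204 to 258 (median 230.7) CPM in the 6 sham libraries and at 268, 273, 317 and 341 CPM in the 4 SNI libraries. B10.D2 libraries had it at 172, 192, 196, 202 and 206 CPM after sham surgery and at 175, 182, 239.9, 240.4 and 261 CPM after SNI. It rose without overlap in BALB/c (log2 fold change 0.39 ± 0.10 (SE), adjusted p = 0.0169), and the B10.D2 groups overlapped (log2 fold change 0.19 ± 0.10 (SE), adjusted p = 0.363). Kcna1 had log2 fold changes of -0.11 ± 0.08 and -0.22 ± 0.08 and was not called. The BALB/c call was lost without BALB/c SNI 64 (adjusted p = 0.0728) and BALB/c SNI 70 (adjusted p = 0.0800).

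LncRNA2070 (chr10:49746107-49763202, minus strand), inside Grik2, which encodes a kainate-type glutamate receptor subunit, was at 36.4 to 49.8 (median 42.1) CPM in the 6 sham libraries and at 57.2, 59.4, 61.4 and 69.1 CPM in the 4 SNI libraries in BALB/c. It rose there without overlap (log2 fold change 0.53 ± 0.08 (SE), adjusted p = 2.22e-04), together with Grik2 (0.42 ± 0.05, adjusted p = 1.68e-05). In B10.D2 Grik2 rose too (0.26 ± 0.05, adjusted p = 0.00485) and LncRNA2070 had log2 fold change 0.24 ± 0.08 (SE), adjusted p = 0.121. Its only supported gap is the 23-base gap printed above.

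LncRNA1098 (chr5:49096446-49114752, minus strand), inside Kcnip4, the gene of a protein that modulates A-type potassium channels, was at 38.1 to 48.7 (median 40.95) CPM in the 6 sham libraries and at 27.4, 29.4, 30.9 and 31.996 CPM in the 4 SNI libraries in BALB/c. The groups did not overlap (log2 fold change -0.49 ± 0.08 (SE), adjusted p = 2.22e-04). Kcnip4 had a log2 fold change of -0.18 ± 0.08 (adjusted p = 0.212). The supported gap of LncRNA1098 spans 30 bases from GC to AG between repeats of 12 bases.

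LncRNA3468 (chr19:59238371-59246400, plus strand) begins 997 bases past the 3′ end of Kcnk18, which encodes the background potassium channel TRESK of sensory neurons. In BALB/c it was at 27.4 to 41.9 (median 32.8) CPM in the 6 sham libraries and at 23.1, 23.2, 23.3 and 26.5 CPM in the 4 SNI libraries. It fell without overlap (log2 fold change -0.45 ± 0.08 (SE), adjusted p = 7.73e-04), and Kcnk18 fell by 0.28 on the log2 scale (adjusted p = 0.0317). In B10.D2 it was at 13.1, 14.6, 14.998, 15.1 and 16.4 CPM after sham surgery and at 12.3, 12.7, 13.2, 13.9 and 14.2 CPM after SNI, with overlap (adjusted p = 0.234). After sham surgery both were lower in B10.D2, LncRNA3468 with a log2 fold change of -1.13 (adjusted p = 3.32e-10) and Kcnk18 with -0.78 ± 0.08. This is 1 of the 72 members placed at the edge of an extended gene model.

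A list of LncRNAs taken from those the study named on these same libraries held 6 members, whose directions are not independent evidence. The study's tables name further members, LncRNA1339 among them. Besides LncRNA3468 the 6 were LncRNA4834, LncRNA561, LncRNA1528, LncRNA531 and LncRNA1291. LncRNA4834 (chr5:107055093-107078903, plus strand) was at 6.01 to 7.68 (median 6.73) CPM in the 6 sham libraries and at 10.6, 10.9, 11.3 and 13.5 CPM in the 4 SNI libraries in BALB/c. It rose without overlap (log2 fold change 0.77 ± 0.10 (SE), adjusted p = 2.28e-05), and in B10.D2 the estimate was 0.30 (adjusted p = 0.0858). LncRNA561 (chr3:101742264-101752184, plus strand) rose in BALB/c from 1.18 ± 0.102 to 1.75 ± 0.205 CPM (SD, n = 6 and 4) without overlap (log2 fold change 0.57 ± 0.12 (SE), adjusted p = 0.00434), and in B10.D2 had -0.04 (adjusted p = 0.909). Both share exon sequence with an annotated gene on the same strand, Gm33474 and Gm43134 respectively, so that the counting may split their reads. Both were also higher in B10.D2 than in BALB/c after sham surgery, by 0.88 and 1.27 on the log2 scale.

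LncRNA1528 (chr7:130932111-130937027, minus strand), antisense to Htra1, which encodes a secreted serine protease, was at 3.25 to 3.88 (median 3.60) CPM in the 6 sham libraries and at 2.13, 2.26, 2.71 and 3.11 CPM in the 4 SNI libraries in BALB/c. The BALB/c groups did not overlap (log2 fold change -0.49 ± 0.13 (SE), adjusted p = 0.0213), while those of B10.D2 did (log2 fold change -0.45 ± 0.13 (SE), adjusted p = 0.0476). The B10.D2 call was lost when any of 14 of the 20 libraries was left out (adjusted p = 0.0518 to 0.131), and the BALB/c call without BALB/c SNI 65 (adjusted p = 0.0662) and BALB/c SNI 70 (adjusted p = 0.0903). Htra1 had -0.04 ± 0.05 in BALB/c (adjusted p = 0.682) and fell in B10.D2 (-0.23 ± 0.05, adjusted p = 0.0106).

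LncRNA531 (chr3:56001321-56119506, plus strand) is antisense to Nbea, the gene of neurobeachin, a regulator of membrane traffic at synapses. It fell in both strains, with group overlap in both (BALB/c log2 fold change -0.24 ± 0.06 (SE), adjusted p = 0.00938, B10.D2 log2 fold change -0.24 ± 0.06 (SE), adjusted p = 0.0133). Nbea rose in BALB/c (0.16 ± 0.04, adjusted p = 0.0263). LncRNA531 lies past the 3′ end of Gm43376, its nearest same-strand gene. Gm43376 fell in BALB/c (-0.30 ± 0.08, adjusted p = 0.0147) and had -0.24 ± 0.08 in B10.D2 (adjusted p = 0.0761). In B10.D2 the fall of LncRNA531 was not called without B10.D2 SNI 90 (adjusted p = 0.0602).

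Among the members called in B10.D2 and not in BALB/c, the falls of LncRNA2021 (chr10:119474890-119560605, plus strand) and LncRNA2022 (chr10:119599591-119627571, plus strand) stood out by level. Both lie on the strand of Grip1, which encodes a scaffold of AMPA-type glutamate receptors. LncRNA2021 was at 14.4, 16.03, 17.8, 18.4 and 19.99 CPM after sham surgery and at 11.6, 11.6, 12.3, 12.99 and 13.2 CPM after SNI. LncRNA2022 was at 32.4, 37.1, 39.8, 44.99 and 45.1 CPM after sham surgery and at 27.2, 28.001, 29.6, 29.996 and 30.8 CPM after SNI. Neither overlapped between groups (log2 fold change -0.48, adjusted p = 0.00345, and -0.44, adjusted p = 0.00513). Grip1 had -0.04 ± 0.07 in B10.D2 and was not called. In BALB/c the 2 members had -0.29 (adjusted p = 0.0565) and -0.19 (adjusted p = 0.192), and the strain by injury interaction did not call either.

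The remaining members named by the rule changed by less than 1 on the log2 scale. In BALB/c, LncRNA1068 inside BC028471 and LncRNA2857 antisense to Ank, a pyrophosphate transport gene, rose by 0.55 and 0.33. BC028471 itself rose too (1.11 ± 0.23, adjusted p = 0.00353). Otulin, whose span LncRNA2857 overlaps on its own strand, had -0.03 ± 0.07 (adjusted p = 0.854). LncRNA1413 inside Dlg2, a synaptic scaffold gene, LncRNA524 inside the noncoding gene Sox2ot, LncRNA1899, LncRNA1788 and LncRNA2895 had log2 fold changes of -0.57 to -0.42. Sox2ot itself rose in BALB/c (0.27 ± 0.06, adjusted p = 0.00807). The call of LncRNA524 was lost when any of 15 of the 20 libraries was left out (adjusted p = 0.0501 to 0.130). In B10.D2, LncRNA1337 antisense to Usp18, an interferon-response protease gene, rose by 0.35, and LncRNA3339 and LncRNA3397 had -0.98 and -0.53. Gm44148, whose span LncRNA1337 overlaps on its own strand, had 0.08 ± 0.17 there (adjusted p = 0.882). Each of these 10 calls except that of LncRNA524 was lost without between 1 and 7 libraries left out singly, with adjusted p of 0.0501 to 0.138.

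By genomic class, same-strand members within genes gave 23 of the 52 BALB/c calls (11.3% of those tested, beside 9.69% of all features) and 8 of the 23 B10.D2 calls (3.94% beside 4.58%). Intergenic members gave 16 (4.86%) and 6 (1.82%), and members antisense to a protein-coding exon 7 (3.89%) and 4 (2.22%). Where a same-strand member within a gene and that gene were both called in BALB/c (16 pairs), 10 pairs moved in the same direction and 6 in opposite directions. In B10.D2 there were 5 such pairs, all of them opposite. All 6 opposite pairs in BALB/c came from the 5 called Nrg1 members and from LncRNA524 with Sox2ot, and the 5 in B10.D2 from Nrg1. These pairs share host genes and are not independent of each other. Among members whose every supported gap lay between direct repeats, 11 of 129 tested were called in BALB/c (8.53%), against 41 of 750 others (5.47%).

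Most calls among members came from the comparison of strains. After sham surgery 301 members differed between B10.D2 and BALB/c, 142 higher and 159 lower in B10.D2. That is 34.2% of those tested beside 21.6% of all features, 23.1% of multi-exon LncRNAs without support, 26.4% of single-exon LncRNAs and 20.7% of annotated genes. Called without overlap of the groups were 219 of the 879 members tested, beside 3167 of the 24685 features tested (12.8%). Within the calls alone this was 219 of 301 members, beside 3167 of 5322 features. The log2 fold change exceeded 1 in size, called or not, in 22.0% of members tested and in 6.64% of all features. Among the 301, 182 differed by more than 2-fold (85 higher, 97 lower in B10.D2) and 63 by more than 8-fold (19 higher, 44 lower). For the 8-fold limit no share over all features is given. Reads of both strains were aligned to the same reference genome. Assembled LncRNAs, unlike annotated genes, had been kept by their presence in every replicate of a condition or strain. The part of this filter in the shares and counts above was not tested.

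Cell type markers also differed between strains after sham surgery, and their part in these calls was not tested. Of 8 macrophage markers 4 were higher in B10.D2 (Aif1, Cx3cr1, Adgre1 and Ptprc), with sums of 165 to 189.9 CPM against 82.9 to 206 CPM in BALB/c. Of 4 muscle markers 3 were lower in B10.D2, at 7.42 to 19.7 CPM in sum against 8.27 to 1265 CPM in BALB/c. Of 14 neuronal markers 2 were higher and 1 lower, of 5 fibroblast markers 2 higher and 1 lower, and 2 of 4 endothelial markers were lower. In the satellite glia list Kcnj10 was lower and in the central glia list Aqp4 was higher, and 0 Schwann cell and 0 red cell markers were called.

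The mean CPM of the SNI libraries differed in the same direction for 298 of the 301, and for 218 of them without overlap between strains. SNI libraries shared the model's estimate of spread and its sex term with the sham comparison, and a fit to sham libraries alone called 268 members. The share called was 25.6% of members with all supported gaps between direct repeats and 35.6% of members with a GT to AG gap without them. It ranged over genomic classes from 23.9% of members antisense to a protein-coding exon to 46.1% of members opposite to a gene they lie within. Of 191 called members whose overlapped or nearest gene could be tested, that gene was called in 77, with the same direction in 56. Of all annotated genes tested 20.7% were called, and for the shared direction no such share is given.

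**Figure D5:**
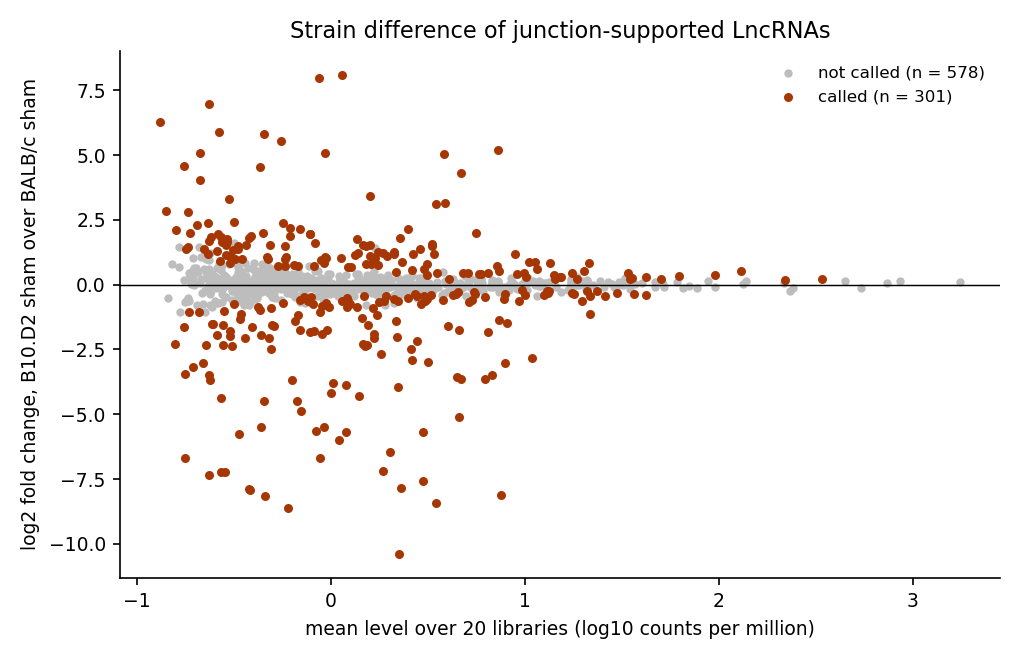
The log2 fold change of B10.D2 sham over BALB/c sham is plotted against the mean level over 20 libraries in log10 CPM, for the 301 members called and the 578 not called. Estimates for members with few or no counts in a strain depend on the small count that the model adds, and the lowest point, LncRNA3324, had 0 counts in B10.D2 sham.

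Among the members higher in B10.D2, LncRNA302 (chr2:118554891-118582213, plus strand) was at 0 to 0.0298 (median 0) CPM in BALB/c sham and at 1.11, 1.18, 2.19, 2.22 and 3.25 CPM in B10.D2 sham libraries. It was at 0, 0, 0 and 0.0251 CPM in BALB/c SNI and at 0.145, 0.485, 2.11, 2.13 and 2.48 CPM in B10.D2 SNI libraries. All 10 B10.D2 libraries lay above all 10 BALB/c libraries. The ratio after sham surgery was 442 with an exact 95% counting interval of 78.8 to 17495, since BALB/c sham libraries held a single count. Bmf, the nearest gene at 5204 bases and a pro-apoptotic BCL2 family gene, had a strain difference of 0.15 ± 0.14 (log2, adjusted p = 0.500).

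LncRNA2951 (chr16:32148069-32199458, plus strand), antisense to Nrros, a microglial and macrophage gene, was at 0.209 to 0.642 (median 0.394) CPM in BALB/c sham and 6.52, 12.5, 17.9, 18.9 and 19.1 CPM in B10.D2 sham libraries. Bex6, whose span it overlaps on its own strand, was at most at 0.106 CPM in any library. LncRNA1616 (chr8:90534096-90552280, plus strand) and LncRNA192 (chr1:158165626-158207115, minus strand) followed with ratios of 36.6 (20.2 to 74.0) and 33.4 (25.3 to 45.1). LncRNA3290 (chr18:30267422-30271082, plus strand) had a ratio of 480 (85.7 to 19008) and a single count in BALB/c sham. In these 4 members too the strains did not overlap after sham surgery. None of the 5 was called after SNI in either strain.

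Among the members lower in B10.D2, LncRNA2432 (chr12:8503146-8506900, minus strand) was at 12.4 to 17.01 (median 14.9) CPM in BALB/c sham and at 0, 0.0302, 0.0585, 0.0724 and 0.0815 CPM in B10.D2 sham libraries. BALB/c SNI libraries stood at 13.7, 14.7, 15.2 and 16.8 CPM and B10.D2 SNI libraries at 0, 0.0268, 0.0837, 0.0970 and 0.128 CPM. Every B10.D2 library was below 1 CPM and every BALB/c library above 10 CPM, a ratio of 299 (157 to 655) after sham surgery. It begins 3137 bases before Rhob, a small GTPase gene, which was higher in B10.D2 by 0.18 ± 0.06 on the log2 scale (adjusted p = 0.0197). Its only supported gap is the 40-base gap printed above.

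There were 7 members with 0 counts in all 10 B10.D2 libraries and 1 in all 10 BALB/c libraries, without a share over all features beside them. A member absent from 1 strain could enter the catalogue through the other strain alone, so these counts give no result about members. With a floor of 3 counts over the group, LncRNA1460 (chr7:3743410-3906418, minus strand) was at least 76.8-fold and LncRNA2557 (chr13:113718412-113723958, plus strand) at least 60.7-fold higher in BALB/c sham than in B10.D2 sham, where both had 0 counts. In LncRNA1460, which runs across Gm14548 and Gm15930, BALB/c sham 71 held 2.51 CPM against a group median of 1.09 CPM. LncRNA3324 (chr18:66750095-66755418, plus strand) was at least 271-fold higher in BALB/c sham. LncRNA3291 (chr18:31619147-31627325, plus strand), 7046 bases before Sap130, had a ratio of 407 (139 to 1978), and Sap130, the gene of a corepressor subunit, was lower in B10.D2 by 0.39 (adjusted p = 6.96e-05). These intervals and floors cover counting error only, since counts were pooled over the libraries of a group, and leave out the spread between mice. Reads carried no molecular identifiers.

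LncRNA1291 (chr6:28923959-28929796, minus strand), opposite to Snd1, which encodes a nuclease of the RNA-induced silencing complex, differed between strains and varied widely within B10.D2 sham. It was at 2.23 to 5.25 (median 3.92) CPM in the 6 sham libraries and at 2.26, 2.83, 4.31 and 5.33 CPM in the 4 SNI libraries in BALB/c and the groups overlapped. In B10.D2 it was at 0.146, 0.190, 0.241, 1.84 and 2.47 CPM after sham surgery and at 0.102, 0.107, 0.112, 0.167 and 0.339 CPM after SNI. In B10.D2 sham, 2 of the 5 libraries were high and 3 lay within the range of the SNI libraries. It was lower in B10.D2 after sham surgery (log2 fold change -2.02 ± 0.49 (SE), adjusted p = 0.00444), and the B10.D2 injury estimate of -2.47 did not pass the threshold (adjusted p = 0.0546).

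Sex was compared over 10 male and 10 female libraries, since the study used both sexes. In edgeR 0 members were called (beside 0.243% of all features), 84 had an unadjusted p under 0.05, and the smallest adjusted p was 0.0646. DESeq2 called 7 members. Only 16 members on X or Y could be tested. The largest estimate was a log2 difference of 1.24 in size. The interaction of sex with injury called 0 of the 924 members tested (beside 0% of all features), with 58 at an unadjusted p under 0.05 and a smallest adjusted p of 0.935, and DESeq2 called 0. A sex difference in the response of these LncRNAs to SNI was not detectable with 2 or 3 libraries of each sex in a group.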

How the data were processed

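RNA-seq libraries of L3 and L4 ganglia from 20 mice were analysed, 1 mouse per library. Per the study's methods, the authors depleted ribosomal RNA, prepared stranded paired-end libraries, mapped reads to mm10 with STAR and counted read pairs with HTSeq. They assembled LncRNAs from reads outside Ensembl and RefSeq models extended by 1000 bases, kept junctions with more than 2 reads, dropped short models and kept those that CPAT scored as noncoding. Only models found in every replicate of a condition or strain were kept. The deposited table holds raw counts per gene and assembled LncRNA, and the deposited annotation files hold exon and junction positions. B10.D2 sham 59 and BALB/c SNI 66 had no count column matched and were not analysed here. Reads of both strains were aligned to the same genome, so that strain-specific sequence can change counts. The authors' own comparison results were not used. Certain items are not reported here.

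Counts were tested with edgeR 4.0.16 (quasi-likelihood F test, R 4.3.3) after TMM normalization and filterByExpr, in a model of 4 strain and surgery groups with a sex term over all 20 libraries, and with an 8-group model for sex by injury. Tests were two-sided, and the Benjamini-Hochberg adjustment ran over all features tested, with a threshold of 0.05. P-values measure the spread between mice. CPM are counts per M after division by the library total times its TMM factor. DESeq2 1.42.0, other filters and models, single-sex fits and leaving out each library in turn were alternatives. On simulated counts for BALB/c SNI against sham, run over all genes and LncRNAs, changes of known size were recovered before use. Positions, classes and neighbours came from GENCODE M21 on mm10, and sequences from the RefSeq copy of that build.

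Members and gene lists were chosen with earlier results of these data known. Named were members called with at least 1 CPM in a group and no overlap between groups (up to 10 up and 10 down per strain after injury, 5 and 5 between strains), the 10 with the highest RPKM, the 5 with the most supported gaps (ties by exon number, then catalogue order), members on a list of LncRNAs taken from the study and called members whose overlapped or nearest gene was a listed channel, receptor, transcription factor or injury gene. Members called in both strains and all same-strand members of Nrg1 and Sgcz were added after values were seen.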

Additional observations from a re-analysis of the deposited data

Results flagged for a closer look

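Among 255 groups of 4 to 6 libraries over the 65 members named, 21 groups in 19 members held 1 library at a distance from the others by Dixon's criterion. Chance gives about 1 in 20 groups. Each value below is in CPM, with the nearest other library of its group beside it, and no cause was tested.

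After injury in BALB/c, LncRNA496 stood at 6.70 in SNI 64 (next 5.54), LncRNA3468 at 26.5 in SNI 64 (next 23.3), LncRNA1523 at 0.875 in SNI 49 (next 0.493), LncRNA3339 at 2.56 in SNI 49 (next 1.81) and LncRNA1488 at 361 in SNI 65 (next 307). LncRNA302, nearly without counts in BALB/c, stood at 0.0251 in SNI 64 with the others at 0. SNI 49 also had high muscle markers.

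In BALB/c sham, LncRNA561 was low in sham 56 (0.976, next 1.18), as was LncRNA1689 (3.18, next 4.74). LncRNA1460 was high in sham 71 (2.51, next 1.37), LncRNA523 in sham 57 (1.07, next 0.745) and LncRNA1616 in sham 50 (0.149, next 0.0501). LncRNA302 stood at 0.0298 in sham 50 and LncRNA3290 at 0.0285 in sham 71, with the others at 0.

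In B10.D2 sham, LncRNA1523 was high in sham 58 (1.75, next 1.33), LncRNA192 in sham 67 (8.75, next 7.72) and LncRNA2381 in sham 60 (15.1, next 11.4), and LncRNA3397 was low in sham 88 (2.53, next 3.02). In B10.D2 SNI, LncRNA1098 was low in SNI 69 (35.1, next 45.0), and LncRNA1522 was high in SNI 89 (1.10, next 0.644). LncRNA1291 was high in SNI 78 (0.339, next 0.167), and so was LncRNA3324 (0.0485, the others at 0).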

How the results depend on the processing

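Across DESeq2 size factors, the DESeq2 test, other filters, no sex term and fits to 1 strain or to sham libraries alone, the 3 counts of members called for injury and strain stayed within 1.5 times of 52, 23 and 301, except that a minimum of 10 counts in every library gave 158 strain calls among 539 tested. Fits to the 10 male libraries gave 11 (BALB/c) and 3 (B10.D2) calls for injury, and fits to the 10 female libraries gave 13 and 3 for injury and 187 for strain. Leaving out each library in turn gave 34 to 61 injury calls in BALB/c (lowest without BALB/c SNI 64), 15 to 26 in B10.D2 (lowest without B10.D2 SNI 90), 273 to 306 between strains, 0 to 2 between sexes and 0 for both interactions. The count between sexes was 7 with DESeq2, 5 without a filter, 1 in BALB/c alone and 2 without the 3 libraries of high muscle or Schwann cell markers, a setting chosen after seeing the data. The cause was not tested. Of the settings tried for named members, 800 in BALB/c, 474 in B10.D2 and 819 between strains kept direction and call, and 120, 99 and 94 kept the direction without the call. No named value changed sign. No paired analysis was possible because the groups share no replicate numbers.

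Depth limits the members of low level: 455 of the 1038 averaged at least 1 CPM, and 879 were tested.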
